A study of Mus musculus with 12 samples.

Results

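Chemokines are small secreted proteins that direct the movement of white blood cells, and their receptors are membrane proteins that signal through inhibitory G proteins. The family members described here are all genes of the array whose symbol begins with Ccl, Cxcl, Ccr or Cxcr and a digit, or with Cx3c, Xcl1, Xcr1 or Ackr and a digit, and whose probe set is annotated to a single gene. There are 56 such genes among 22180 named genes, namely 19 CC ligands, 13 CXC ligands, 2 other ligands, 10 CC receptors, 6 CXC receptors, 2 other receptors and 4 atypical receptors. Within the family, the symbols alone chose the members.

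Liver RNA was compared between 6 samples labelled Ad-hApoF and 6 labelled Ad-GFP. The first group (hApoF 7 to hApoF 12) received an adenovirus of the type Ad5 carrying human apolipoprotein F, a secreted protein of lipoproteins, and the second (GFP 1 to GFP 6) the same type of virus carrying green fluorescent protein. All were C57BL6/J males of 8 to 10 weeks, injected into the tail vein and killed 4 days later after 6 h without food, so that both groups had been given adenovirus. The labels give no viral dose, no promoter of the transgene and no batch, and livers without virus were not analysed here. They leave unsaid whether every array stands for a different mouse, and p-values therefore cover the scatter among these arrays, which may be technical. Whether any probe set also reads the human transcript was not tested.

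The major ligand classes are told apart by their first cysteines, adjacent in CC ligands and separated by another residue in CXC ligands. The liver uses them to place and recruit its leukocytes. Cxcl12 is a homeostatic ligand made by stromal and endothelial cells, Ccl2 draws Ccr2-bearing monocytes, Cxcl1 and its relatives draw neutrophils, and Cxcl9, Cxcl10 and Cxcl11 are induced by interferon and draw Cxcr3-bearing lymphocytes. Adenovirus particles taken up by the liver are known to induce several of these ligands.

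Levels are log2 values after robust multi-array averaging (RMA), 1 array per sample, and a difference of 1 is a doubling. The array gives no detection call, so each member was set against the median of all probe sets, which lay between 4.93 and 5.03 on the 12 arrays. By that measure 28 members had a mean below the mean array median and 28 above it, and 21 were below the median on every array. Among all named genes 44.0% had a mean below it. The members below it comprise 10 of 19 CC ligands, 8 of 10 CC receptors, 4 of 13 CXC ligands, 3 of 6 CXC receptors, 1 of 4 atypical receptors, Xcl1 and Xcr1. Whether these 28 lie above background cannot be read from the values, and their differences are given with that limit. In limma's array quality weights hApoF 12 (0.543) and GFP 4 (0.633) were lowest, and calls that change when both are left out are given both ways. Genes outside the family that are named only for such a change were picked after their values were seen. The 13 measured hepatocyte markers were all above the array median, with list means of 12.22 to 12.28 in hApoF livers, against 12.06 to 12.20 in GFP livers. For this list the group ranges did not overlap.

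Few members of the family differed between the groups. In limma, fitted over all 22180 genes with Benjamini-Hochberg adjustment, 2 of the 56 members (3.57%) passed an adjusted p of 0.05, both higher with hApoF, and 54 did not pass. Of all genes tested 6.91% passed, 2.11% higher and 4.8% lower, so the members' share over both directions lay below that of all genes, and their share of higher calls, which rests on 2 genes, lay above it. The 2 genes are Ccr2, the monocyte receptor for Ccl2, and Cxcl12, and neither was among the members below the array median. The shares of 6.91%, 2.11% and 4.8% also stand beside the counts by role and by list below, and no list was tested against them. At an unadjusted p of 0.05, 17 members (30.4%) were past the threshold, 14 higher and 3 lower. Of all genes 21.3% were past it, 10.1% higher and 11.1% lower. Ccr2 was the only member whose groups did not overlap, 1 of 56 (1.79%), with hApoF higher. Among all genes the groups did not overlap for 4.98%, and hApoF was the higher one for 1.49%.

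The differences were small throughout. Only Cxcl10 differed by more than 0.5 on the log2 scale, and all other members lay between -0.42 (Cxcl9) and 0.46 (Ccr2). The median log2 difference over the 56 members was 0.06, against 0.03 over all genes. For the 28 members above the array median it was 0.13, against -0.01 for all genes above it, and for the 28 below it 0.03, against 0.06 for all genes below it. Positive differences were seen in 39 members and negative ones in 17, but when each array was centred on its own median the split was 29 and 27, so the sign count depends on the scaling. The 10 members whose sign turned with centring (Ccl1, Ccl22, Cxcl11, Cx3cl1, Ccr6, Ccr9, Cxcr1, Cxcr3, Cxcr6 and Ackr1) all differed by less than 0.03. For a typical member the 95% interval extended 0.21 to either side of the difference.

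**Figure D1:**
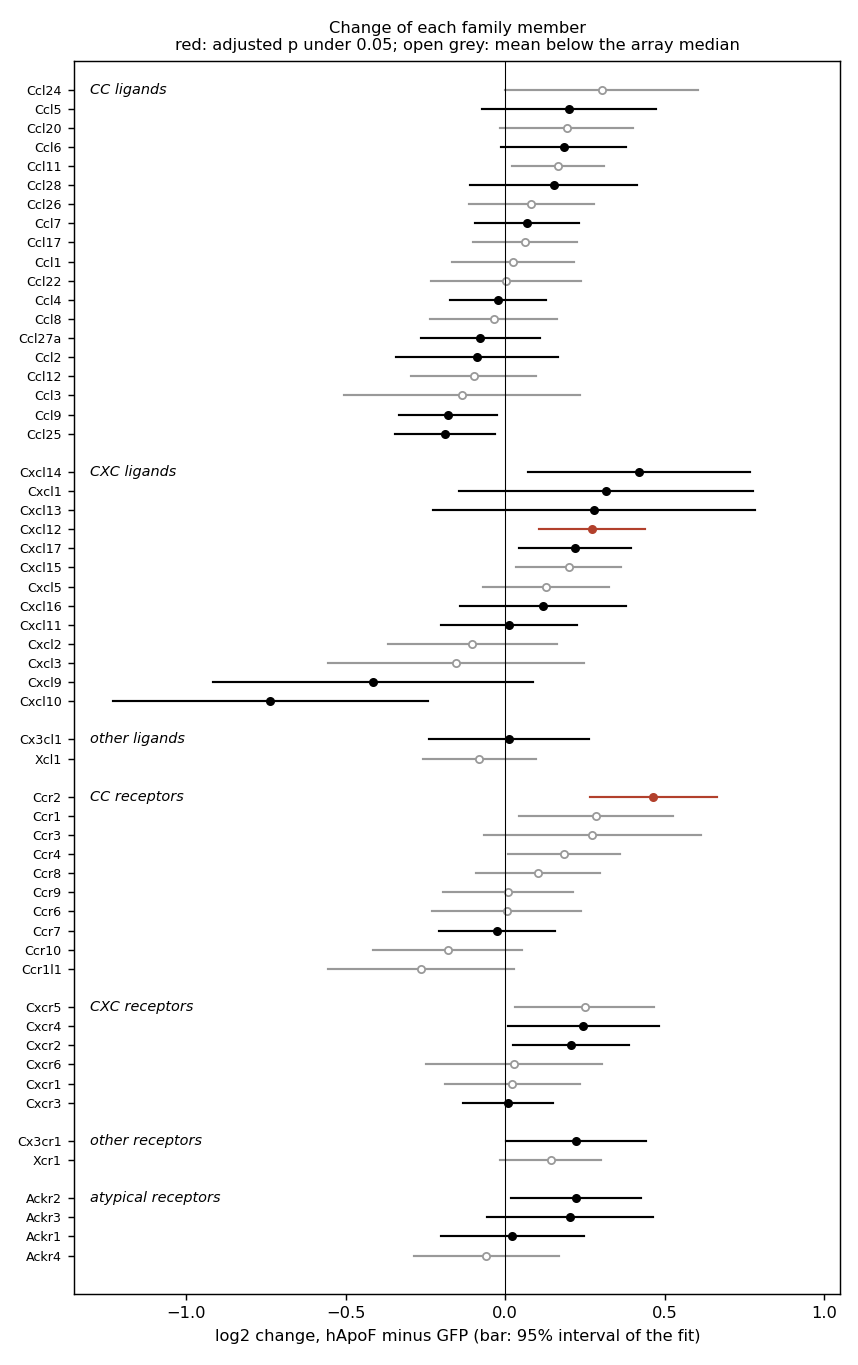
Log2 difference, hApoF minus GFP, of each of the 56 members by role, with the 95% interval of the limma fit (6 arrays per group). Red marks an adjusted p under 0.05 (Ccr2 and Cxcl12), and open grey points mark the 28 members whose mean lay below the array median. Most intervals span 0, and Cxcl10 lies farthest to the left at -0.74.

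Ccr2 rose. This receptor lets inflammatory monocytes leave the bone marrow and enter inflamed tissue. Its levels were 5.35, 5.63, 5.31, 5.57, 5.77 and 5.61 in hApoF livers 7 to 12, against 5.13, 5.07, 5.11, 4.88, 4.97 and 5.31 in GFP livers 1 to 6. Every hApoF array was above every GFP array, although hApoF 9, the lowest of its group, exceeded GFP 6, the highest of the other, by only 0.0016. The means were 5.54 ± 0.17 in hApoF livers and 5.08 ± 0.15 in GFP livers (SD, n = 6 each), a 1.38-fold difference (log2 0.46, SE 0.09, limma adjusted p = 0.0063, exact two-sided permutation p = 0.0022). That permutation p is the smallest that 6 against 6 arrays can give. The call was made in all 20 alternative fits, with values of the limma adjusted p between 0.0027 and 0.023. Ccr2 is close to the array median (2 of the 12 arrays lie below it), and related receptor genes neighbour it on chromosome 9, and whether its probe set responds to another receptor transcript was not tested.

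The ligands of Ccr2 did not pass. Ccl2, the main monocyte attractant, had levels of 5.03, 5.36 and 5.57 (lowest, median and highest) in hApoF livers, against 4.97, 5.53 and 5.69 in GFP livers (log2 difference -0.09, SE 0.12, limma adjusted p = 0.724). The GFP arrays span a wider range than the hApoF arrays and contain it, and the 95% interval of the difference is -0.34 to 0.17. Ccl7, another Ccr2 ligand, ranged over 5.96 to 6.18 in hApoF livers, against 5.84 to 6.19 in GFP livers (log2 difference 0.07, interval -0.10 to 0.23). Ccl12, a mouse ligand of the same receptor, lay below the array median on all arrays, with a difference of -0.10 (interval -0.29 to 0.10).

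Other monocyte markers, apart from Fn1, did not pass. Of the 8 other measured genes of the monocyte list 1 rose, 0 fell and 7 did not pass. The riser was Fn1, fibronectin, which hepatocytes also make (log2 difference 0.24, limma adjusted p = 0.046), a call made in 2 of the 12 omissions of a single array (limma adjusted p up to 0.103). The mean level of these 8 genes was 5.62 to 5.90 in hApoF livers, against 5.55 to 5.88 in GFP livers, and 4 of the 8 lay below the array median. Their median difference was 0.04, against 0.03 for all genes.

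Markers of resident macrophages were higher in part. Of 15 measured Kupffer cell and macrophage markers 4 rose and 11 did not pass, with Clec4f, a Kupffer cell lectin (1.26, limma adjusted p = 0.010), Cd163, a haemoglobin scavenger receptor (0.96, limma adjusted p = 0.031), Vsig4, a complement receptor (1.38, limma adjusted p = 0.038), and Mrc1, the mannose receptor (0.37, limma adjusted p = 0.043). Of the 15 differences 13 were positive, with a median of 0.20, against -0.01 for all genes above the array median. Adgre1 and Lyz2 both differed by -0.13, and Cd68 and C1qb by 0.02 and 0.05. All 15 were above the array median, and their mean level was 7.24 to 8.06 in hApoF livers, against 6.79 to 7.71 in GFP livers, so that the groups overlap. When single arrays were omitted, Clec4f passed in all 12 fits, Cd163 in 6, Vsig4 in 5 and Mrc1 in 3 (limma adjusted p up to 0.098, for Mrc1), and all 4 passed without GFP 4 and hApoF 12, as did Timd4, a Kupffer cell receptor (0.81, limma adjusted p = 0.110 with all arrays and 0.041 without both). In bulk liver, more cells of a type and more RNA per cell cannot be told apart, and the part of these cells in the Ccr2 difference was not tested.

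**Figure D2:**
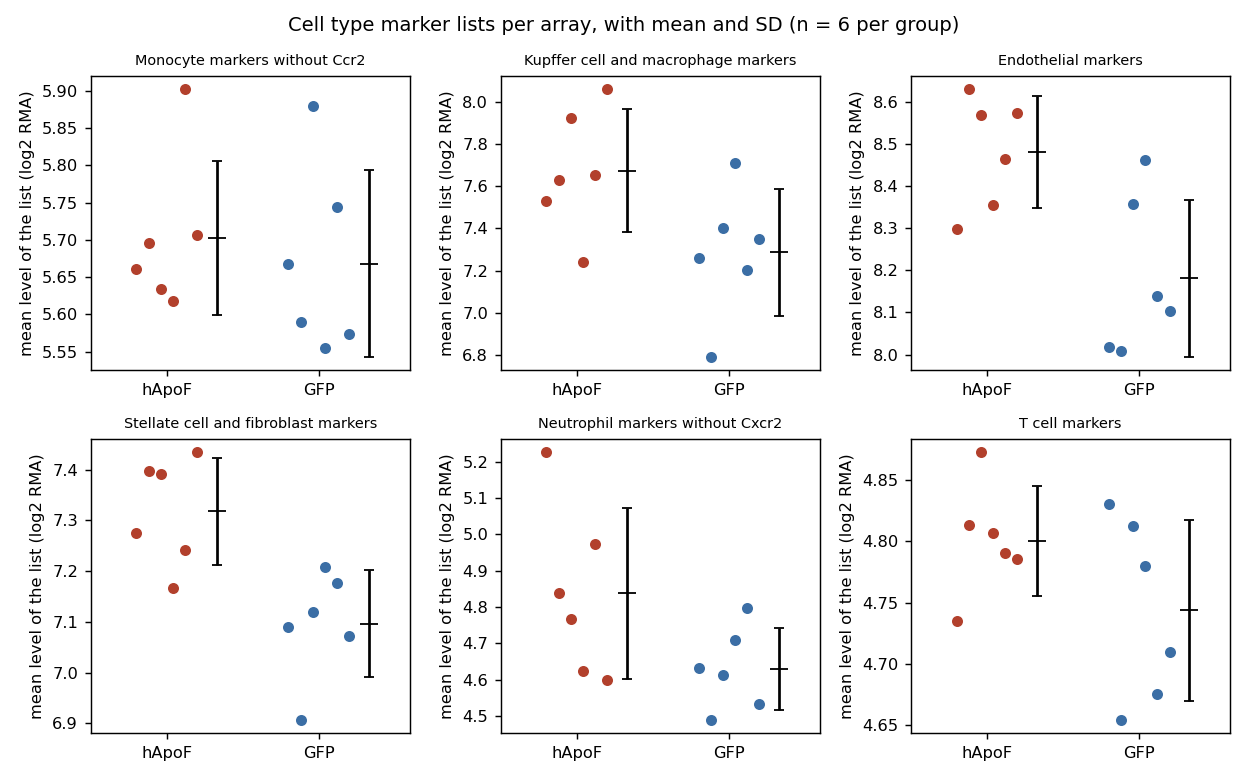
Mean log2 level of 6 cell type marker lists on each array, hApoF left of GFP, with the group mean and SD (n = 6 each) beside the points. The monocyte list leaves out Ccr2 and the neutrophil list Cxcr2. The groups overlap in every panel, and the hApoF mean is the higher one in each. The group means differ by 0.39 for the Kupffer cell list, 0.30 for the endothelial and 0.22 for the stellate cell list. For the neutrophil, T cell and monocyte lists they differ by 0.21, 0.06 and 0.03.

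Cxcl12 rose slightly. It is the ligand that keeps cells bearing Cxcr4 in place. Levels were 10.04, 9.99, 9.82, 9.84, 10.11 and 9.93 in hApoF livers 7 to 12, against 9.65, 9.79, 9.82, 9.51, 9.57 and 9.76 in GFP livers 1 to 6. The groups overlap at 1 point only, where GFP 3 exceeded hApoF 9. The means were 9.95 ± 0.11 in hApoF livers and 9.68 ± 0.13 in GFP livers (SD, n = 6 each), a 1.21-fold difference (log2 0.27, SE 0.08, limma adjusted p = 0.048, exact two-sided permutation p = 0.0043). The call was close to the threshold. When single arrays were omitted it was made only without hApoF 9, and the limma adjusted p reached 0.096 without GFP 5. It was not made when arrays were centred (limma adjusted p = 0.121), without GFP 4 and hApoF 12 (0.084) or when p was adjusted over all probe sets (0.072).

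The receptors of Cxcl12 did not pass. Cxcr4, its signalling receptor, had levels of 5.44, 5.71 and 5.81 (lowest, median and highest) in hApoF livers, against 5.06, 5.44 and 5.78 in GFP livers (log2 difference 0.24, SE 0.11, limma adjusted p = 0.217). GFP 6 was the lowest array and the groups overlap, with an interval of 0.01 to 0.48 for the difference. Ackr3, an atypical receptor that takes Cxcl12 up without G protein signalling, had 5.41, 5.51 and 5.89 in hApoF livers, against 4.94, 5.47 and 5.63 in GFP livers (log2 difference 0.20, SE 0.12, limma adjusted p = 0.367). Here too GFP 6 was the lowest array.

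Markers of the cells known to make Cxcl12 were also higher in part. Of 14 endothelial markers 5 rose and 9 did not pass, among them Kdr, a receptor for vascular endothelial growth factor (0.44, limma adjusted p = 0.0089), Tek, the angiopoietin receptor (0.41, limma adjusted p = 0.014), Fcgr2b, an Fc receptor of sinusoidal cells (0.37, limma adjusted p = 0.015), and Ptprb, a phosphatase (0.36, limma adjusted p = 0.025). The mean level of the 14 endothelial markers was 8.30 to 8.63 in hApoF livers, against 8.01 to 8.46 in GFP livers. All 14 differences were positive, with a median of 0.30, against -0.01 for all genes above the array median. Of 14 stellate cell and fibroblast markers 3 rose and 11 did not pass, namely Rgs5, a pericyte regulator of G protein signalling (0.54, limma adjusted p = 0.0034), Dcn, decorin (0.26, limma adjusted p = 0.034), and Pdgfrb, a growth factor receptor (0.28, limma adjusted p = 0.038). The mean level of that list was 7.17 to 7.44 in hApoF livers, against 6.91 to 7.21 in GFP livers. Of its 14 differences 11 were positive, with a median of 0.26. The negative ones were Des (-0.09), Acta2 (-0.03) and Col1a1 (-0.004). When single arrays were omitted, Kdr, Tek, Fcgr2b and Rgs5 passed in all 12 fits, Ptprb in 8, and Dcn and Pdgfrb in 3 each (limma adjusted p up to 0.095, for Pdgfrb). Without GFP 4 and hApoF 12, Clec4g and Oit3 of the endothelial list also passed (limma adjusted p = 0.014 and 0.035, against 0.087 and 0.073 with all arrays). The 28 markers were all above the array median, and their part in the Cxcl12 difference was not tested.

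Among the interferon-induced ligands of Cxcr3, Cxcl10 gave the largest difference of the 56 members, and none of the ligands passed. Cxcl10 had levels of 5.87, 6.00, 6.55, 6.22, 6.24 and 5.57 in hApoF livers 7 to 12, against 7.15, 6.42, 7.80, 6.26, 6.40 and 6.82 in GFP livers 1 to 6. The groups overlap, since hApoF 9 lay above GFP 2, GFP 4 and GFP 5, and GFP 3 and GFP 1 were the highest arrays. The mean was 6.07 ± 0.34 in hApoF livers and 6.81 ± 0.59 in GFP livers (SD, n = 6 each), 1.67-fold lower with hApoF, and the difference did not pass (log2 -0.74, SE 0.23, limma adjusted p = 0.070, exact two-sided permutation p = 0.0173). It passed without GFP 4 (limma adjusted p = 0.037) and when the test was restricted to genes above the array median (0.041). Over the 20 alternatives the highest limma adjusted p was 0.140, without GFP 1, and without GFP 4 and hApoF 12 it was 0.069.

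Cxcl9 had levels of 8.36, 8.63 and 8.83 (lowest, median and highest) in hApoF livers, against 8.20, 8.84 and 10.01 in GFP livers (log2 difference -0.42, SE 0.24, limma adjusted p = 0.336). GFP 3 and GFP 1 again stood highest, while GFP 4 was the lowest of all 12 arrays. Cxcl11, the remaining ligand of this receptor, had 5.67, 6.15 and 6.31 in hApoF livers, against 5.91, 6.06 and 6.29 in GFP livers (log2 difference 0.01, SE 0.10, limma adjusted p = 0.961), and the hApoF arrays contain the range of the GFP arrays. Cxcr3, the receptor on activated T and natural killer cells, had 5.10, 5.22 and 5.34 in hApoF livers, against 5.06, 5.21 and 5.27 in GFP livers (log2 difference 0.01, SE 0.07, limma adjusted p = 0.954). Its interval, -0.13 to 0.15, is the narrowest of the family.

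**Figure D3:**
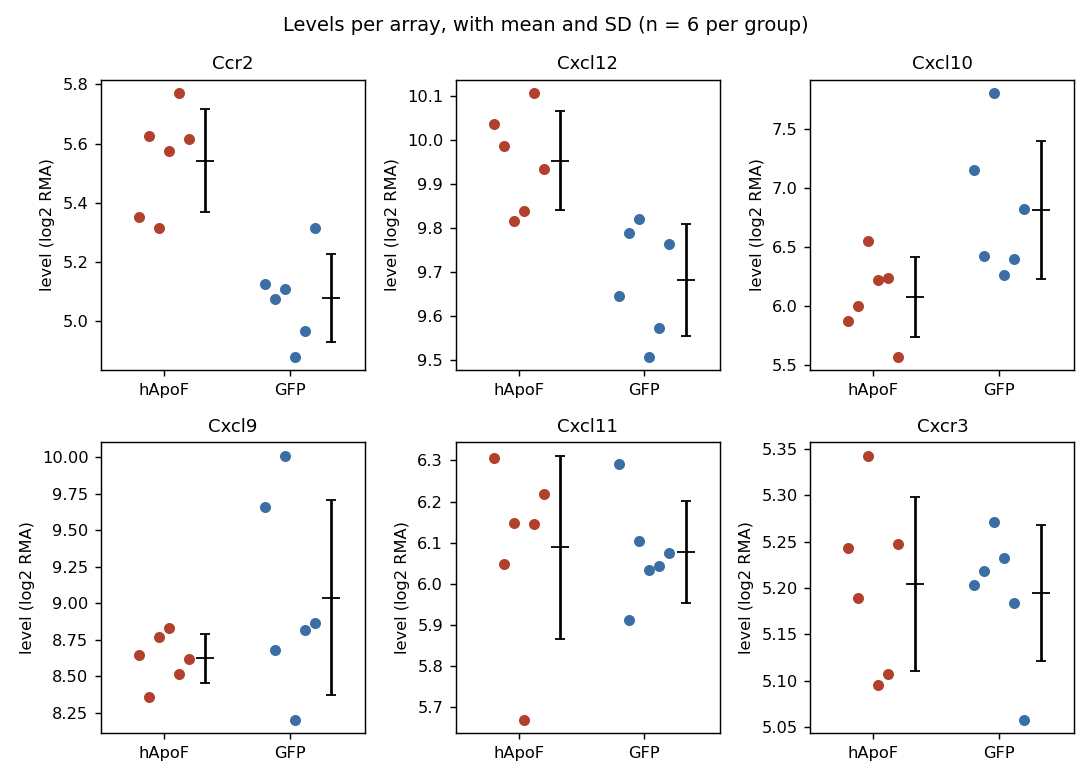
Log2 RMA level on each array, hApoF left of GFP, for the genes that passed (Ccr2, Cxcl12), the Cxcr3 ligands Cxcl10, Cxcl9 and Cxcl11, and Cxcr3, with mean and SD (n = 6 each). The Ccr2 groups do not overlap, and GFP 3 and GFP 1 stand above the other arrays for Cxcl10 and Cxcl9.

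Interferon-response genes were listed beside these ligands. Of the 21 measured genes, 3 of them below the array median, 0 passed in limma in either direction. They had a median difference of -0.16 against 0.03 for all genes, and 5 of the 21 differences were positive. The lowest p was that of Usp18, a negative regulator of interferon signalling (-0.54, limma adjusted p = 0.067). The mean level of the list was 6.42 to 6.88 in hApoF livers, against 6.57 to 7.27 in GFP livers, highest on GFP 3 and GFP 1 and lowest on hApoF 7 and hApoF 12.

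Within each group, Cxcl10 levels ran in or close to the order of the interferon-response list. Across the 6 hApoF arrays Pearson's r was 0.837 and Spearman's rho 0.943 (exact permutation p = 0.032 and 0.017, adjusted 0.064 and 0.033 over the 6 relations computed). Across the 6 GFP arrays r was 0.955 and rho 1 (exact permutation p = 0.0014 and 0.0028, adjusted 0.0083 and 0.017), 0.0014 being the smallest p that 6 arrays can give. Without the 2 arrays farthest from the median of the list r was 0.882 in hApoF livers and 0.989 in GFP livers. For Cxcl9 the relation did not pass in hApoF livers (r = 0.078, rho = 0.2, exact permutation p = 0.878 and 0.714), where r was 0.505 without hApoF 7 and hApoF 12, the outermost arrays. It passed in GFP livers (r = 0.969, rho = 0.943, exact permutation p = 0.0028 and 0.017, adjusted 0.0083 and 0.033), where r was 0.925 without GFP 3 and GFP 4. For Cxcl11 it passed in neither group, with r of -0.511 and rho of -0.486 in hApoF livers (exact permutation p = 0.311 and 0.356) and 0.468 and 0.771 in GFP livers (0.332 and 0.103). Its r without the outermost arrays was 0.408 in hApoF livers and 0.894 in GFP livers. These relations were chosen after the values were seen, and whether they differ between the groups was not tested.

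**Figure D4:**
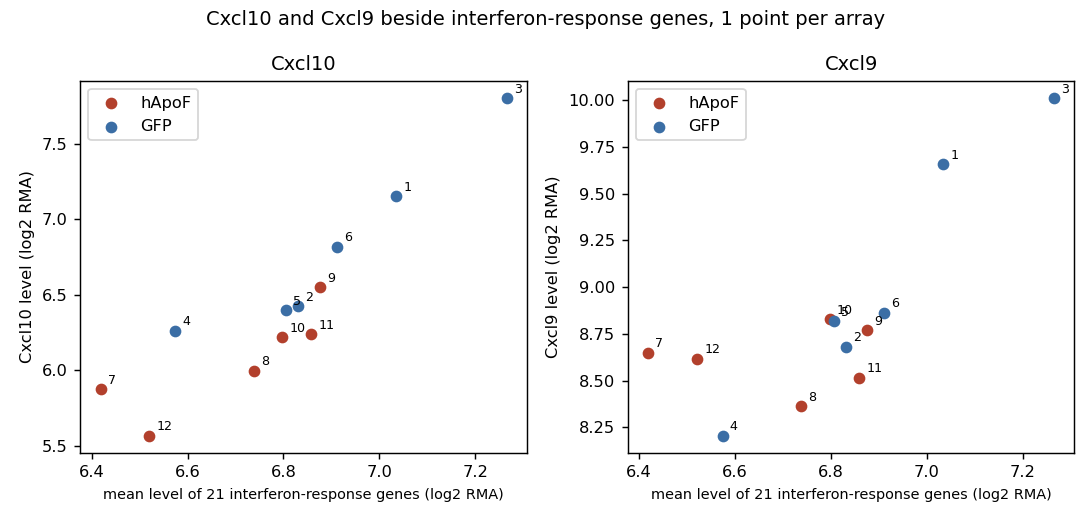
Log2 RMA level of Cxcl10 (left) and Cxcl9 (right) against the mean level of 21 interferon-response genes, 1 point per array, with the replicate number beside it. For Cxcl10 the arrays of both groups line up, with GFP 3 and GFP 1 at the top right, and for Cxcl9 the hApoF arrays show no order.

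The promoters shown are those of the members that passed and of the interferon-induced pair Cxcl10 and Cxcl9, which did not pass. Whether the motifs in these windows bear on any difference was not tested. Each is the 250 bases before the annotated start, 5′ to 3′ on the gene's strand, from RefSeq on GRCm38.p6. Capitals mark matches, on either strand, to a strict NF-kappaB motif (GGG and TTTCC with 2 bases between), a looser one (GGG and TTCC with 3 between), the interferon-stimulated response element (a pair of GAAA with 2 between), the gamma-activated sequence (TTC and GAA with 3 between) and AP-1 (TGANTCA).
Ccr2 (chr9:124101933-124102182, plus strand): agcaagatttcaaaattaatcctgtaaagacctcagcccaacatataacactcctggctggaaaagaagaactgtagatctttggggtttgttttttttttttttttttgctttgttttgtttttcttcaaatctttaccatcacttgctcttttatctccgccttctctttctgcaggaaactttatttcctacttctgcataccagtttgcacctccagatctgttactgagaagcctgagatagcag
Cxcl12 (chr6:117168285-117168534, plus strand): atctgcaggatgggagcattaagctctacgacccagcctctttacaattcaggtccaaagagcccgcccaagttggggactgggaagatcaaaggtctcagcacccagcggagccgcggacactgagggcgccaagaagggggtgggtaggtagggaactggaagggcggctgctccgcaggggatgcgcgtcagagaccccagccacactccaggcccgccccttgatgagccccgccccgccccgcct
Cxcl10 (chr5:92348890-92349139, minus strand): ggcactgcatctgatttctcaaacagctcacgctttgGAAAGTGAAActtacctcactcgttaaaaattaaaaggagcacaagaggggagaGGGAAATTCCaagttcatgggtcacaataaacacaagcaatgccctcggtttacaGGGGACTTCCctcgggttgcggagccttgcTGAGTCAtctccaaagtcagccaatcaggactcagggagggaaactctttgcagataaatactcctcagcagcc
Cxcl9 (chr5:92328080-92328329, minus strand): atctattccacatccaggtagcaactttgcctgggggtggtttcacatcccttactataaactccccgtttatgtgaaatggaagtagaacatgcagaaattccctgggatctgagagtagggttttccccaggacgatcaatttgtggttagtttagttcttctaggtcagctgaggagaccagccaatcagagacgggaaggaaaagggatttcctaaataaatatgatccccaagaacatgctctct
Only the Cxcl10 window of these 4 holds matches. They are an interferon-stimulated element (GAAAGTGAAA) from 213 to 204 bases before the start, a pair of looser NF-kappaB matches (GGGAAATTCC from 159 to 150 and GGGGACTTCC from 104 to 95) and an AP-1 match (TGAGTCA from 74 to 68), which do not overlap. Over 32851 promoter windows of the same length, the strict NF-kappaB motif was found in 1.41%, the looser one in 4.65%, the interferon-stimulated element in 2.98%, the gamma-activated sequence in 7.02% and AP-1 in 6.75%. A strict match is also a looser one. Of the 42 members with a window, counted by gene, 6 held the strict motif (14.3%) and 9 the looser one (21.4%). These members have 46 windows, and a gene counted if any of its windows matched. Their shares are therefore in another unit than the shares over all windows, and the 2 were not compared by a test. The interferon-stimulated element was found in 2 of the 42 members, the gamma-activated sequence in 4 and AP-1 in 5. Cxcl1 and Ccl9, which did not pass in limma, are among the members with a strict match. The looser motif was added after the sequences were seen. The absence of a match says only that these letters are not in that window.

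Ligands of neutrophils did not pass. Cxcl1 had levels of 7.89, 8.22 and 8.53 (lowest, median and highest) in hApoF livers, against 7.07, 7.99 and 8.78 in GFP livers (log2 difference 0.31, SE 0.22, limma adjusted p = 0.437), and the GFP arrays covered the wider range, with GFP 1 lowest and GFP 5 highest. Cxcl2, Cxcl3 and Cxcl5, which share the receptor Cxcr2, were below the array median on all arrays, with log2 differences of -0.10, -0.15 and 0.13. Cxcr2 itself ranged over 5.18 to 5.65 in hApoF livers, against 5.13 to 5.28 in GFP livers (log2 difference 0.21, SE 0.09, limma adjusted p = 0.175). Cxcr1, its relative, had a mean below the array median and differed by 0.02, a sign that turns when arrays are centred.

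Neutrophil markers beside them were mostly dim. Of 13 measured markers other than Cxcr2 2 rose, 0 fell and 11 did not pass, and 11 of the 13 were below the array median. The risers were Mmp8, a collagenase of neutrophil granules (0.52, limma adjusted p = 0.016), and S100a9, a calcium-binding protein (0.40, limma adjusted p = 0.049), both with means below the array median. Without single arrays Mmp8 passed in all 12 fits and S100a9 in 3 (limma adjusted p up to 0.113). The mean level of the list was 4.60 to 5.23 in hApoF livers, against 4.49 to 4.80 in GFP livers, highest on hApoF 7. Its median difference was 0.22, against 0.03 for all genes and 0.06 for all genes below the array median. With Cxcr2 counted, 12 of 14 differences were positive.

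Among CC ligands, 0 of 19 passed, against 6.91% of all genes, with differences from -0.19 (Ccl25) to 0.30 (Ccl24). Ccl9, a mouse ligand of Ccr1, had levels of 10.20, 10.38 and 10.52 (lowest, median and highest) in hApoF livers, against 10.48, 10.51 and 10.70 in GFP livers (log2 difference -0.18, SE 0.07, limma adjusted p = 0.163). All GFP arrays but GFP 3 lay between 10.48 and 10.53, and the highest hApoF array overlapped them. Ccl6, a related mouse ligand of Ccr1, had 6.07, 6.39 and 6.58 in hApoF livers, against 6.05, 6.20 and 6.35 in GFP livers (log2 difference 0.18, SE 0.09, limma adjusted p = 0.267). Ccl5, which attracts T cells, had 6.03, 6.44 and 6.78 in hApoF livers, against 5.98, 6.35 and 6.50 in GFP livers (log2 difference 0.20, SE 0.13, limma adjusted p = 0.400). In both the groups overlap, and the sign of the difference is positive, where that of Ccl9 is negative.

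Ccl24, an eotaxin made by macrophages, had levels of 4.49, 4.74 and 4.98 (lowest, median and highest) in hApoF livers, against 3.91, 4.45 and 4.78 in GFP livers (log2 difference 0.30, SE 0.14, limma adjusted p = 0.234). All 12 arrays lie below the array median, and the groups overlap. Ccl11, the other well-known eotaxin, differed by 0.17 and their receptor Ccr3 by 0.27 (limma adjusted p = 0.170 and 0.354), both from dim probe sets. Ccl26, with a mean below the array median, differed by 0.08. Ccl3 and Ccl4, inflammatory ligands of macrophages, differed by -0.13 and -0.02. For Ccl3, whose mean lay below the array median, GFP 3 stood apart at 5.53.

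Ligands with a more restricted role also did not pass. Ccl25, the ligand of Ccr9, ranged over 6.33 to 6.61 in hApoF livers, against 6.50 to 6.81 in GFP livers (log2 difference -0.19, SE 0.07, limma adjusted p = 0.148), and Ccr9 differed by 0.01. Ccl27a, a ligand of Ccr10, had levels of 5.71, 5.96 and 6.18 in hApoF livers, against 5.92, 6.04 and 6.16 in GFP livers (log2 difference -0.08, SE 0.09, limma adjusted p = 0.658). Its groups overlap, and its second, dimmer probe set gave a difference of -0.15. The mean level of that probe set, 5.79341, equals the lowest mean among the several-gene probe sets that list copies of Ccl27. Whether it is a separate measure of Ccl27a was not tested. Ccl28, which shares that receptor, differed by 0.15 and Ccr10 by -0.18. Ccl20 and its receptor Ccr6 differed by 0.19 and 0.00, and Ccl17 and Ccl22, ligands of Ccr4, by 0.06 and 0.00, while Ccr4 differed by 0.18. Ccl1 and, in mice, Ccl8 bind Ccr8, and these 3 genes differed by 0.03, -0.04 and 0.10. Apart from Ccl25, Ccl27a and Ccl28, these genes have means below the array median.

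The other CXC ligands included the B cell attractant Cxcl13, with levels of 4.85, 5.20 and 6.34 (lowest, median and highest) in hApoF livers, against 4.74, 4.95 and 6.00 in GFP livers (log2 difference 0.28, SE 0.24, limma adjusted p = 0.543). hApoF 12 and GFP 4 were the highest arrays of their groups, and both also had the highest Kupffer cell and macrophage list mean of their groups. The Cxcl13 receptor Cxcr5, with a mean below the array median, differed by 0.25. Cxcl14, a homeostatic ligand of epithelia, ranged over 5.69 to 6.84 in hApoF livers, against 5.36 to 6.01 in GFP livers (log2 difference 0.42, SE 0.16, limma adjusted p = 0.148). Cxcl17, a mucosal ligand, and Cxcl15, known from mouse lung, differed by 0.22 and 0.20 (limma adjusted p = 0.135 and 0.146). Cxcl15, whose probe set is dim, passed without GFP 4 and hApoF 12 (limma adjusted p = 0.038).

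Cxcl16, a membrane-bound ligand that also takes up oxidised lipoproteins, ranged over 6.85 to 7.37 in hApoF livers, against 6.75 to 7.42 in GFP livers (log2 difference 0.12, SE 0.12, limma adjusted p = 0.627). Cxcr6, its receptor on liver T and natural killer T cells, had levels of 3.76, 4.23 and 4.77 (lowest, median and highest) in hApoF livers, against 4.06, 4.17 and 4.47 in GFP livers (log2 difference 0.03, SE 0.13, limma adjusted p = 0.929). All arrays lay below the array median, and hApoF 8 and hApoF 12 were the extremes. Of 12 T cell markers and 10 natural killer cell markers 0 passed in either direction in limma. The gene of lowest p was Cd4 (-0.25, limma adjusted p = 0.085) among the T cell markers and Klrd1 (0.42, limma adjusted p = 0.157) among the natural killer markers.

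Ccr1, the receptor for Ccl3, Ccl5, Ccl6 and Ccl9 on myeloid cells, had levels of 3.84, 3.95 and 4.51 (lowest, median and highest) in hApoF livers, against 3.58, 3.84 and 3.93 in GFP livers (log2 difference 0.28, SE 0.11, limma adjusted p = 0.156). The highest array was hApoF 7, the groups overlap, and all 12 arrays lay below the array median. Ccr1l1, a Ccr1-like gene, differed by -0.26 (limma adjusted p = 0.284), and by -0.42 without GFP 4 and hApoF 12 (0.048), from a probe set below the array median on all arrays. Ccr7, which guides dendritic and T cells to lymph nodes, ranged over 5.31 to 5.65 in hApoF livers, against 5.28 to 5.69 in GFP livers (log2 difference -0.03, SE 0.09, limma adjusted p = 0.891).

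Cx3cr1, a receptor of monocytes and some liver macrophages, had levels of 6.28, 6.39 and 6.82 (lowest, median and highest) in hApoF livers, against 5.93, 6.27 and 6.45 in GFP livers (log2 difference 0.22, SE 0.10, limma adjusted p = 0.230). hApoF 8 stood above all others, and the groups overlap. Its ligand Cx3cl1, fractalkine, had 4.73, 5.12 and 5.41 in hApoF livers, against 4.89, 5.04 and 5.25 in GFP livers (log2 difference 0.01, SE 0.12, limma adjusted p = 0.966), with the hApoF arrays spread more widely than the GFP arrays. Xcr1, which marks cross-presenting dendritic cells, had 4.57, 4.84 and 5.03 in hApoF livers, against 4.62, 4.68 and 4.77 in GFP livers (log2 difference 0.14, SE 0.07, limma adjusted p = 0.294). The hApoF range contains the GFP range. Its ligand Xcl1 differed by -0.08, and Xcl1 lay below the array median on all arrays and Xcr1 on 11. Of the 9 dendritic cell markers outside the family 0 passed in limma in either direction, and Zbtb46, a dendritic cell transcription factor, had the lowest p (0.25, limma adjusted p = 0.071).

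The atypical receptors bind chemokines without G protein signalling. Ackr1, found on red cells and venules, had levels of 4.74, 5.06 and 5.25 (lowest, median and highest) in hApoF livers, against 4.67, 5.05 and 5.30 in GFP livers (log2 difference 0.02, SE 0.10, limma adjusted p = 0.929). The GFP arrays contain the hApoF range, and 4 of the 12 arrays lie below the array median. Ackr2, which degrades inflammatory CC ligands, ranged over 5.94 to 6.52 in hApoF livers, against 5.94 to 6.31 in GFP livers (log2 difference 0.22, SE 0.10, limma adjusted p = 0.194). It passed without hApoF 11, the lowest array, when the limma adjusted p was 0.038. Ackr4, which removes Ccl19, Ccl21 and Ccl25, had a mean below the array median and differed by -0.06.

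Genes around the family were described from 4 further lists. Of 21 measured genes related to chemokine action 1 rose and 20 did not pass. The riser was Dpp4, a surface peptidase that trims Cxcl12 and other chemokines, with 9.86 ± 0.13 in hApoF livers and 9.54 ± 0.08 in GFP livers (SD, n = 6 each, log2 difference 0.33, SE 0.07, limma adjusted p = 0.014). Every hApoF array of Dpp4 (9.74 to 10.05) lay above every GFP array (9.44 to 9.67), and it passed whichever array was omitted. Hepatocytes are among the cells known to make Dpp4. Without GFP 4 and hApoF 12 the count was 1 higher and 1 lower, the lower one being Cklf (-0.25 and limma adjusted p = 0.161 with all arrays, 0.046 without both).

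Of 33 signalling genes downstream of the receptors 0 passed in limma, and Rgs2, an inhibitor of G protein signals, had the lowest p (0.35, limma adjusted p = 0.094). Without GFP 4 and hApoF 12, 1 of them was lower, the receptor kinase Grk3 (-0.35 and limma adjusted p = 0.159 with all arrays, 0.037 without both). Of 32 genes of inducing cytokines and NF-kappaB 0 passed either, with the lowest p for Birc3, an NF-kappaB target (0.29, limma adjusted p = 0.081). Of 21 leukocyte adhesion genes Jam2, a junctional molecule of endothelium, rose (0.37, limma adjusted p = 0.037) and 20 did not pass, and the Jam2 call was made in 3 of the 12 omissions (limma adjusted p up to 0.089) and not without GFP 4 and hApoF 12 (0.052), when Aoc3, an endothelial adhesion protein, passed instead (0.031, against 0.282 with all arrays). The median differences of the lists of related, signalling, inducing and adhesion genes were 0.12, -0.03, 0.04 and 0.06, against 0.03 for all genes.

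Markers of further cell types did not pass, except in hepatocytes. Of 9 B cell, 6 bile duct and 7 platelet and megakaryocyte markers 0 passed in limma, and the genes of lowest p were Cd79a (0.27, limma adjusted p = 0.063), Epcam (0.29, limma adjusted p = 0.065) and Treml1 (0.23, limma adjusted p = 0.061). Without GFP 4 and hApoF 12, Cd79a passed (limma adjusted p = 0.035), and so did Itga2b, a platelet integrin (0.030, against 0.076 with all arrays). Of 13 hepatocyte markers 2 rose, Pck1, the gluconeogenic enzyme (0.44, limma adjusted p = 0.002), and Hpd, an enzyme of tyrosine breakdown (0.32, limma adjusted p = 0.048), the call for Hpd being made in 3 of the 12 omissions (limma adjusted p up to 0.109). Of the 13 differences 12 were positive, all but that of Hnf4a (-0.08). Their median was 0.11, against -0.01 for all genes above the array median.

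A further 33 probe sets list a family symbol together with other genes, mostly the near-identical copies of Ccl19, Ccl21 and Ccl27, and give 23 distinct sets of values. Their values belong to no single gene. Over these, differences ran from -0.21 to 0.44, and 1 of 33 passed when limma was fitted over all 35145 probe sets. In the same fit 1185 of the 22180 named genes passed, each read from its brightest probe set. For the 13 that list copies of Ccl19 the differences ran from 0.08 to 0.28, for the 11 that list copies of Ccl27 from -0.21 to 0.44, and for the 9 that list copies of Ccl21 the highest was 0.07.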

How the data were processed

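Liver RNA was measured on single-colour microarrays, 1 array per sample, in 6 hApoF and 6 GFP samples, grouped by their titles. The deposited values are log2 intensities from robust multi-array averaging (RMA) with the oligo package, per the submitters' processing notes; software versions are not given in these sources. Of 35145 probe sets 23521 list 1 gene, 1814 several and 9810 none, by the platform annotation. The brightest probe set stood for each of 22180 genes. One fit with limma 3.58.1 in R 4.3.3 (lmFit and eBayes, no covariates) covered all of them, hApoF minus GFP, with Benjamini-Hochberg adjustment and a threshold of 0.05. Permutation tests enumerated all 924 assignments and are two-sided.

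Alternatives were arrays centred on their medians, a repeated quantile normalization, genes above the array median only, trend and robust settings, the mean of a gene's probe sets, adjustment over all probe sets, array weights, omission of GFP 4 and hApoF 12, and omission of each array. The family and the gene lists were chosen with earlier results of these data known. Full values are given for members past the threshold and for a set named by role, and each list names up to 4 genes past the threshold, by lowest p, or the gene of lowest p. In simulated data with the same 22180 genes, 68% of genes given a log2 difference of 0.5 and 98% of those given 1 were called. At each size 50 genes were changed, and 13 unchanged genes were called. The simulated noise was normal and independent between genes, so it holds no scatter shared by genes on an array. These percentages therefore need not hold for the members. Promoter windows came from RefSeq. No protein sequence was used here, and 1 receptor of the role set was not analysed here. The number of arrays limits the precision.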

Additional observations from a re-analysis of the deposited data

Results flagged for a closer look

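In each group of 6 arrays, the gap between the highest or the lowest array and its neighbour was set against the range of the group, with Dixon's critical value for 6 samples. Of 112 groups searched 7 were past it, and chance alone marks about 1 in 20. In hApoF livers, Cx3cr1 stood apart on hApoF 8 with a log2 level of 6.82, where the other arrays lay between 6.28 and 6.46. The same array had the highest Ccr3, a receptor of eosinophils, at 4.76, against 4.08 to 4.31 on the others, all below the array median. Ackr2 was lowest on hApoF 11 at 5.94, against 6.34 to 6.52 on the other hApoF arrays. Cxcr1 was lowest on hApoF 12 at 4.53, against 4.86 to 5.04. In GFP livers, Ccl9 and Ccl3 both stood apart on GFP 3, at 10.70 (others 10.48 to 10.53) and 5.53 (others 4.75 to 4.90), the array that also had the highest Cxcl9 and Cxcl10. Cxcl13 stood apart on GFP 4 at 6.00, against 4.74 to 5.03 on the other GFP arrays.

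Among the probe sets that list several genes, 1 that lists copies of Ccl27 together with a transcript outside the family averaged 6.72 ± 0.12 in hApoF livers and 6.28 ± 0.21 in GFP livers (SD, n = 6 each). The difference was 0.44 on the log2 scale (SE 0.10, limma adjusted p = 0.019 over all probe sets), and which of the listed genes it reports was not tested.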

How the results depend on the processing

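Of the 56 members, 2 were called higher in the reported analysis, 1 with centred arrays, 1 with adjustment over all probe sets, 3 with array weights (Cxcl15 in addition), and 1 to 2 when single arrays were omitted. For members called lower the reported count was 0, with 1 among genes above the array median only (Cxcl10), 1 without GFP 4 and hApoF 12 (Ccr1l1), and 0 to 1 when single arrays were omitted (Cxcl10, without GFP 4). Ccr2 passed in all 20 alternatives. In each alternative that tested them 43 members kept their sign, and the other 13 differed by at most 0.04; the 28 members below the array median were not tested in the alternative restricted to genes above it. Of 253 list genes outside the family, 19 were called higher, 11 with centred arrays, 31 among genes above the array median, 10 with adjustment over all probe sets, and 8 to 26 when single arrays were omitted (lowest without GFP 2, highest without GFP 4). For list genes called lower the count was 0, with 1 for centred arrays, 3 for genes above the array median, 1 with trend and robust settings, 2 without GFP 4 and hApoF 12, and 0 to 3 when single arrays were omitted. The signalling, inducing, interferon, T cell, B cell, dendritic cell, bile duct and platelet lists, each with 0 called genes as reported, had 1 or 2 in some alternatives, such as 1 signalling gene higher with quantile normalization and 1 among genes above the array median. Of all genes called higher there were 469, and 254 to 653 when single arrays were omitted, and of all genes called lower 1064, and 748 to 1335. Against the median of the named genes only, 32 members in place of 28 were dim. Where calls changed, the cause was not tested. No paired analysis was possible because the replicate numbers of the groups are not shared. A dim probe set limits what can be said of its gene, and livers without virus were not analysed here.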
